A study of Mus musculus with 2 samples.

Results

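The 10 genes described here encode the LC3 and GABARAP proteins of autophagy (Map1lc3a, Map1lc3b, Gabarap, Gabarapl1, Gabarapl2), an enzyme and a kinase complex subunit that act on or before them (Atg4d, Atg101), and 3 cargo receptors that bind them (Sqstm1, Bnip3, Bnip3l). They were taken by symbol from the 27998 features measured, and all 10 were found in both libraries. The libraries came from the cornea and limbus rim of 2 female littermates of 28 days on the C57BL/6 background, 1 wild type and 1 Becn1 heterozygote (beclin1 +/-), the latter carrying 1 functional copy of the gene for beclin 1. Single cells, freed with collagenase and then trypsin after most conjunctiva had been cut away, were profiled with the 10x Genomics droplet protocol, which counts transcript molecules (UMIs) per cell. With 1 animal and 1 library per genotype, genotype, animal and library preparation cannot be told apart, and no test across animals could be made.

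Autophagy encloses cytoplasm in a double membrane that grows into a closed vesicle and fuses with lysosomes. ATG4 proteases trim newly made LC3 and GABARAP proteins, which are then joined to a lipid of the growing membrane, where they bind receptors that carry cargo such as ubiquitinated protein or mitochondria. Beclin 1 belongs to the lipid kinase complex that acts upstream of this step, and in the corneal epithelium cells move from the basal layer through wing cells to the surface, where they are shed.

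Cells of both libraries were clustered together, and each of 22 clusters was placed in a layer by marker level in counts per 1000000 UMIs (CPM). A cluster with Dcn of at least 5000 CPM was called stroma, then one with Lce3a of at least 1000 CPM surface, one with Krt14 of at least 2000 CPM basal, and one with Krt12 of at least 20000 CPM and less Krt14 wing. The wild-type library gave 1214 basal, 495 wing, 94 surface and 561 stromal cells, and the heterozygote library 2002, 1118, 236 and 1344. Clusters 14, 19, 20 and 21 (98 wild-type and 242 heterozygote cells) met none of these limits. The layers are groups set by thresholds: Krt14 was 2557 CPM in cluster 3, just inside basal, and 1807 and 1806 CPM in clusters 4 and 14, just outside. Wing cluster 10 had the superficial gene Krt78 among its leading genes, so members with a call that involves wing cells are also given by wing cluster or without it. The counts of pathway list genes include it. Wing cluster 15 had 681 and 581 CPM of the stromal gene Dcn and the highest median depth in its layer (39927 and 21410 UMIs), and the part of mixed droplets in it was not tested.

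The wild-type library was the deeper of the pair, with a median of 16967 UMIs per barcode against 11571, and its shallowest barcode had 8089 UMIs against 5430. The libraries shared 15 cell barcodes. Dcn measured 67.2 and 90.2 CPM in basal cells against 27205 and 28086 CPM in stroma, and Krt12 measured 983 and 1346 CPM in stroma, so each layer held low counts of the other's transcripts. Becn1 itself, with the wild-type value first, was 40.0 and 39.8 CPM in basal cells, 51.8 and 50.0 CPM in wing, 39.5 and 47.0 CPM at the surface, and 29.8 and 33.7 CPM in stroma. In no layer was it lower by 1.2-fold or more in the library labelled heterozygote, so the Becn1 count does not check that label, and every direction given for the heterozygote refers to the library so labelled.

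Throughout, paired values are the wild-type library first and the heterozygote second. Levels are CPM of the UMIs summed over the cells of a layer, and differences are log2 ratios with 95% exact counting intervals, which cover counting error only and not differences between animals. A gene was measured in a comparison when the mean of the values compared reached 20 CPM. Between layers it was called when it differed at least 1.5-fold in the same direction in both libraries.

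The members differed between layers in a few patterns. Toward the surface the LC3 genes Map1lc3a and Map1lc3b and the GABARAP gene Gabarapl2 were higher. In the stroma Gabarap, Gabarapl1 and Atg101 were higher and the receptors Sqstm1 and Bnip3l lower than in the epithelium as a whole. Some basal clusters came to the stromal level of Atg101, Sqstm1 or Bnip3l, as given below. From wing over basal 3 of 8 measured members were called, against 36.1% of all measured genes (15.3% higher and 20.8% lower). From surface over wing it was 3 of 7, against 77.6% (16.7% higher, 60.9% lower), and from stroma over all epithelium 5 of 8, against 56.3% (31.7% higher, 24.6% lower). The shares of members called were thus near or below the background in each comparison, apart from direction: the 3 called at the surface were all higher, where most genes called were lower. The median over the measured members was 0.22 and 0.20 for surface over wing, beside -1.13 and -1.11 over all genes. This direction and median cover only members that passed the 20 CPM limit. The members under it had negative surface over wing ratios: Atg4d (-3.12 and -2.88), Gabarapl1 (-0.89 and -0.70) and Bnip3 (-1.69 and -0.85). With no such limit 6 members were called.

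**Figure D1:**
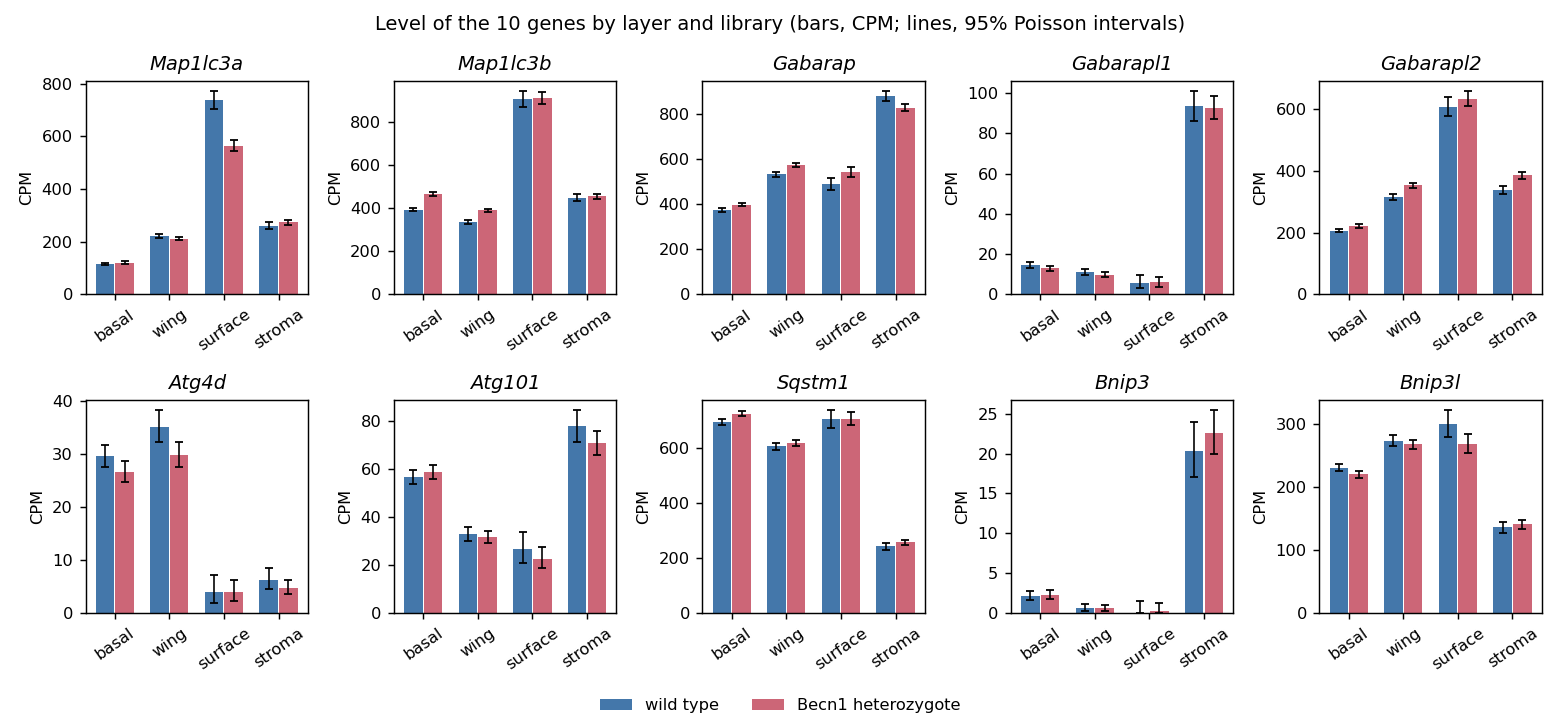
Level of each of the 10 genes (CPM, linear axes that differ between panels) in basal, wing, surface and stromal cells of the wild-type (blue) and Becn1 heterozygote (red) library; lines are 95% exact Poisson intervals. Map1lc3a, Map1lc3b and Gabarapl2 are highest at the surface, Gabarap, Gabarapl1, Atg101 and Bnip3 in stroma, and Sqstm1 and Bnip3l are lowest in stroma.

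Upstream sequence is shown for 4 genes that stand for these patterns, Map1lc3b and Gabarapl2 for the surface and Gabarapl1 and Bnip3 for the stroma. Each is read from RefSeq on GRCm38.p6, 5′ to 3′ on the gene's strand, and stops before the annotated start of the gene. RefSeq entries were found for 8 of the 10 genes, and Map1lc3a and Bnip3l had none in the table used. Capitals mark ACGTG or its reverse complement CACGT, the core to which hypoxia-inducible and E-box factors bind.
Map1lc3b, chr8:121590188-121590360, plus strand: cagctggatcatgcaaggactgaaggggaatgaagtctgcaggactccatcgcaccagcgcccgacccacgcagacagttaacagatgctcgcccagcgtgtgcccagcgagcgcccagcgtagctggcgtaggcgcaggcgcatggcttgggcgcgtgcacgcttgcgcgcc
Gabarapl2, chr8:111940453-111940702, plus strand: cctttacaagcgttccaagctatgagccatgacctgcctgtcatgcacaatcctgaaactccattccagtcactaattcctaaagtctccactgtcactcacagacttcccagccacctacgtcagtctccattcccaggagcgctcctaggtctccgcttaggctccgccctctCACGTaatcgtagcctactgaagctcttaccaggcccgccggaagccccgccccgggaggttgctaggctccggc
Gabarapl1, chr6:129532942-129533159, plus strand: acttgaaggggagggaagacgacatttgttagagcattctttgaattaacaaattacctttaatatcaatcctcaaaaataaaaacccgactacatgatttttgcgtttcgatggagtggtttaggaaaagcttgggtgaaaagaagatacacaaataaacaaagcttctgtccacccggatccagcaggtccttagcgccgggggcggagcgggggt
Bnip3, chr7:138909520-138909756, minus strand: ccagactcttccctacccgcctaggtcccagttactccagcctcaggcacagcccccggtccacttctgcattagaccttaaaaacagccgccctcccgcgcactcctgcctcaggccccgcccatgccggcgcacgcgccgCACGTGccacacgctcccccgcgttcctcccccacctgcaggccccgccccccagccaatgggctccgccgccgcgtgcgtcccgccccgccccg
In Bnip3 the matches on the 2 strands overlap and form the palindrome CACGTG, 108 bases before the RefSeq start, and Gabarapl2 has CACGT 75 bases before it. Both strands of the 250 bases before each start were searched. Over 32851 such windows, 6.02% held CACGTG and 16.6% held ACGTG. Of the 8 windows, those of Gabarap and Atg101 also held ACGTG. Only 23 bases of the Gabarap window lie before the annotated start of the gene. Its match, 108 bases before the RefSeq start, is inside the gene as annotated. TGANNNNGC, the core of the element bound by NRF2, was in 35.2% of windows and in those of Map1lc3b and Gabarapl2. These are matches of letters, shown as a description of the sequence.

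Map1lc3a encodes LC3A, and its gene lies at chr2:155276297-155278073 on the plus strand of mm10. Its level was 116 and 121 CPM in basal cells, 223 and 212 CPM in wing cells, 737 and 564 CPM at the surface, and 261 and 275 CPM in stroma. The order was basal, wing, stroma, surface in both libraries, with intervals that did not overlap within a library. From basal to wing it was higher by a log2 ratio of 0.95 (0.88 to 1.02) and 0.80 (0.74 to 0.87), and from wing to surface by 1.73 (1.64 to 1.81) and 1.42 (1.34 to 1.49), or 3.31-fold and 2.67-fold. The wing clusters were spread along this range, from 136 and 132 CPM in cluster 4 to 457 and 362 CPM in the Krt78-high cluster 10. Without cluster 10 the wing over basal ratios were 0.61 and 0.48, and with layers set cell by cell 0.50 and 0.60, and in both cases the call was lost because 1 library was under 1.5-fold. Surface over wing was 2.06 and 1.74 without cluster 10, and stayed called.

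Map1lc3b encodes LC3B, the form most used to mark autophagosomes, at chr8:121590361-121598760 on the plus strand. The annotation has Gm20388 overlapping it on the same strand and Zcchc14 on the other. No 60-base stretch of the last 500 bases of Map1lc3b was found in another gene. Reads elsewhere in the overlap could be counted for Gm20388, and the level of Map1lc3b is uncertain to that extent. It measured 393 and 465 CPM in basal cells, 337 and 389.8 CPM in wing cells, 905 and 911 CPM at the surface, and 448 and 454 CPM in stroma. The step lay between wing and surface, with log2 ratios of 1.43 and 1.22, or 2.69-fold and 2.34-fold. Unlike Map1lc3a, it stood close to wing level in cluster 10 (389.8 and 375 CPM). Within stroma it ranged from 313 and 351 CPM in cluster 2, led by Fgf21 and Kera, to 757 and 762 CPM in cluster 17, led by Pi16 and Eln.

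Gabarapl2, which encodes the protein also called GATE-16, lies at chr8:111940703-111953612 on the plus strand. Its level was 206 and 221 CPM in basal, 315 and 353 CPM in wing, 607 and 633 CPM in surface and 338 and 386 CPM in stromal cells. Each epithelial layer was above the one beneath it: wing over basal gave 0.61 (0.55 to 0.67) and 0.68 (0.63 to 0.73), and surface over wing 0.95 (0.86 to 1.03) and 0.84 (0.78 to 0.91). Over the 7 basal clusters it varied little, from 196 to 221 CPM and from 190.1 to 232 CPM. Cluster 10 was again the highest of the wing clusters (421 and 445 CPM), and without it the wing over basal ratios were 0.51 and 0.57 and the call was lost. It was lost also with layers set cell by cell (0.42 and 0.55), finer clusters (0.54 and 0.62) and totals without mitochondrial and ribosomal protein genes (0.48 in each library). Those totals also ended the surface over wing call, at 0.63 and 0.58.

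Gabarap, at chr11:69991143-69994951 on the plus strand, followed another order. It measured 375 and 398 CPM in basal cells, 534 and 575 CPM in wing cells, 492 and 543 CPM at the surface, and 881 and 829 CPM in stroma. Stroma over epithelium was 1.01 (0.97 to 1.05) and 0.79 (0.76 to 0.82), and surface over wing -0.12 and -0.08, which was not called. With TMM scaling the stromal call was lost (0.65 and 0.38) and surface over wing turned positive (1.29 and 1.34). The wing clusters ran from 493 and 528 CPM in cluster 4 to 574 CPM in cluster 10 and 604 CPM in cluster 7.

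Gabarapl1, at chr6:129533160-129542346 on the plus strand, was higher in stroma than in any epithelial layer. It overlaps Gm44243 on its own strand and 1700101I11Rik on the other, which leaves its level uncertain in the same way as that of Map1lc3b. It measured 14.7 and 12.9 CPM in basal cells, 11.0 and 9.76 CPM in wing cells, 5.81 and 5.93 CPM at the surface, and 93.5 and 92.7 CPM in stroma. Stroma stood 7.24-fold and 8.35-fold above epithelium (log2 2.86 and 3.06), and neither library had an epithelial cluster above 30.5 CPM or a stromal cluster of at least 20 cells in each library below 83.7 CPM. Basal and wing intervals did not overlap in either library (13.3 to 16.3 against 9.44 to 12.8 CPM, and 11.6 to 14.3 against 8.47 to 11.2 CPM), but both layers fell below the 20 CPM limit for a call.

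Summed over these 5 genes, the family reached 1105 and 1219 CPM in basal cells, 1420 and 1539 CPM in wing cells, 2747 and 2658 CPM at the surface, and 2022 and 2037 CPM in stroma. The sum was higher with each step to the surface, also under each of the other scalings run. Its make-up shifted as well: Map1lc3a took 10.5% and 9.97% of the family's UMIs in basal cells and 26.8% and 21.2% at the surface, while Gabarap took 17.9% and 20.4% at the surface and 43.6% and 40.7% in stroma. These shares count captured molecules and are not corrected for how well each transcript is captured.

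**Figure D2:**
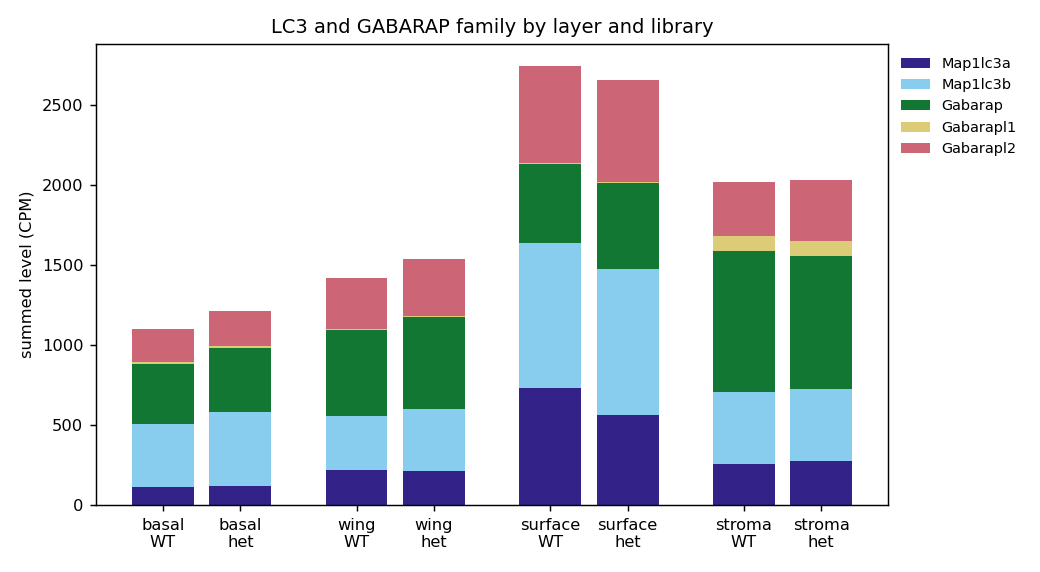
Level of the 5 LC3 and GABARAP genes (CPM, stacked from 0) by layer and library. The stack is tallest at the surface (2747 and 2658 CPM), where Map1lc3a, Map1lc3b and Gabarapl2 widen, and in stroma (2022 and 2037 CPM) Gabarap is the widest band.

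Of the enzyme and the kinase subunit, Atg4d was highest in basal and wing cells. Atg4d, a member of the ATG4 protease family, lies at chr9:21265293-21277772 on the plus strand and overlaps Kri1 on the other strand. It measured 29.6 and 26.7 CPM in basal cells, 35.2 and 29.9 CPM in wing cells, 3.87 and 3.96 CPM at the surface, and 6.28 and 4.73 CPM in stroma. Surface over wing was -3.12 (-4.26 to -2.30) and -2.88 (-3.68 to -2.24), from 10 and 18 UMIs at the surface, and stroma over epithelium -2.24 and -2.45. Both comparisons stayed under the mean of 20 CPM and were not called, and the all-gene medians of the same ratios were -1.13 and -1.11 for the first and 0.06 and 0.13 for the second. Within the basal layer Atg4d was lowest in the limbal clusters, and within the wing layer in cluster 10 (22.9 and 22.0 CPM).

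Atg101, a subunit of the ULK kinase complex that starts autophagosome formation, lies at chr15:101284272-101290945 on the plus strand. It measured 56.5 and 58.7 CPM in basal cells, 32.9 and 31.4 CPM in wing cells, 26.7 and 22.6 CPM at the surface, and 77.7 and 70.7 CPM in stroma. It was the 1 member called lower in wing than in basal cells, by -0.78 (-0.93 to -0.63) and -0.90 (-1.03 to -0.77), and in stroma it was higher than in epithelium by 0.74 and 0.65. Wing and surface intervals overlapped in the wild-type library. Stromal clusters of at least 20 cells in each library ran from 53.8 CPM (cluster 11) and 52.8 CPM (cluster 2) to 106 and 90.4 CPM in cluster 5. The limbal basal clusters together had 80.9 and 86.3 CPM, above the stromal layer. Without cluster 10 the wing over basal ratios were -0.79 and -0.96. With TMM scaling that call was lost, at -0.51 and -0.64. The stromal call was lost under 4 alternatives, at 0.38 and 0.24 with TMM scaling, 0.66 and 0.57 with layers set cell by cell, 0.55 and 0.50 with totals without mitochondrial and ribosomal protein genes, and 0.31 and 0.58 with cells thinned to 5000 UMIs.

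Sqstm1 encodes sequestosome, the receptor that joins ubiquitinated cargo to LC3, at chr11:50199366-50210827 on the minus strand, overlapping Mrnip on the other. It measured 696 and 726 CPM in basal cells, 607 and 618 CPM in wing cells, 707 and 708 CPM at the surface, and 242 and 257 CPM in stroma. Stroma over epithelium was -1.46 (-1.53 to -1.39) and -1.41 (-1.46 to -1.35). The basal average hid a wide spread between clusters. Cluster 1, led by Mmp13 and Mmp10, had 1165 and 1071 CPM, the limbal cluster 9 had 1023 and 801 CPM, and cluster 3, led by Pax6, had 256 and 249.9 CPM, close to the stromal level. The other 4 basal clusters lay between 636 and 829 CPM in wild-type cells and between 664 and 785 CPM in heterozygote cells. The wing clusters ran from 775 and 741 CPM in cluster 4 to 344 and 348 CPM in cluster 15. Stromal clusters of at least 20 cells in each library ran from 192 and 213 CPM in cluster 2 to 457 and 596 CPM in cluster 17. Stromal cluster 17 was thus above basal cluster 3 and wing cluster 15, so the lower stromal level did not hold for every pair of clusters.

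Sqstm1 had the highest ratio of variance to mean over cells among the members. With each cell thinned to 5000 UMIs, this ratio (1 for pure counting noise) was 2.79 and 2.35 for Sqstm1 in basal cells, against 0.983 to 1.22 for the other 9 members. In wing cells it was 2.36 and 2.28 for Sqstm1, with Map1lc3a next at 1.51 and 1.46. The ratio grows with the mean: divided by the squared mean, the variance beyond counting noise in wing cells was 0.414 and 0.396 for Sqstm1 and 0.458 and 0.429 for Map1lc3a. In basal cells it was 0.468 and 0.345 for Sqstm1, below 0.937 and 1.08 for Gabarapl1. Gabarapl1 had a mean of only 0.0717 and 0.0694 UMIs per basal cell, and its wing values were -0.00196 and 1.01. Atg4d, at 0.390 in heterozygote basal cells, was also above Sqstm1 there. Cluster 3 sits just inside the Krt14 limit, and the wing over basal ratio of Sqstm1, -0.20 and -0.23, moved with how layers were drawn, to -0.93 with layers set cell by cell in the wild-type library and to -0.73 with finer clusters in the heterozygote.

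**Figure D3:**
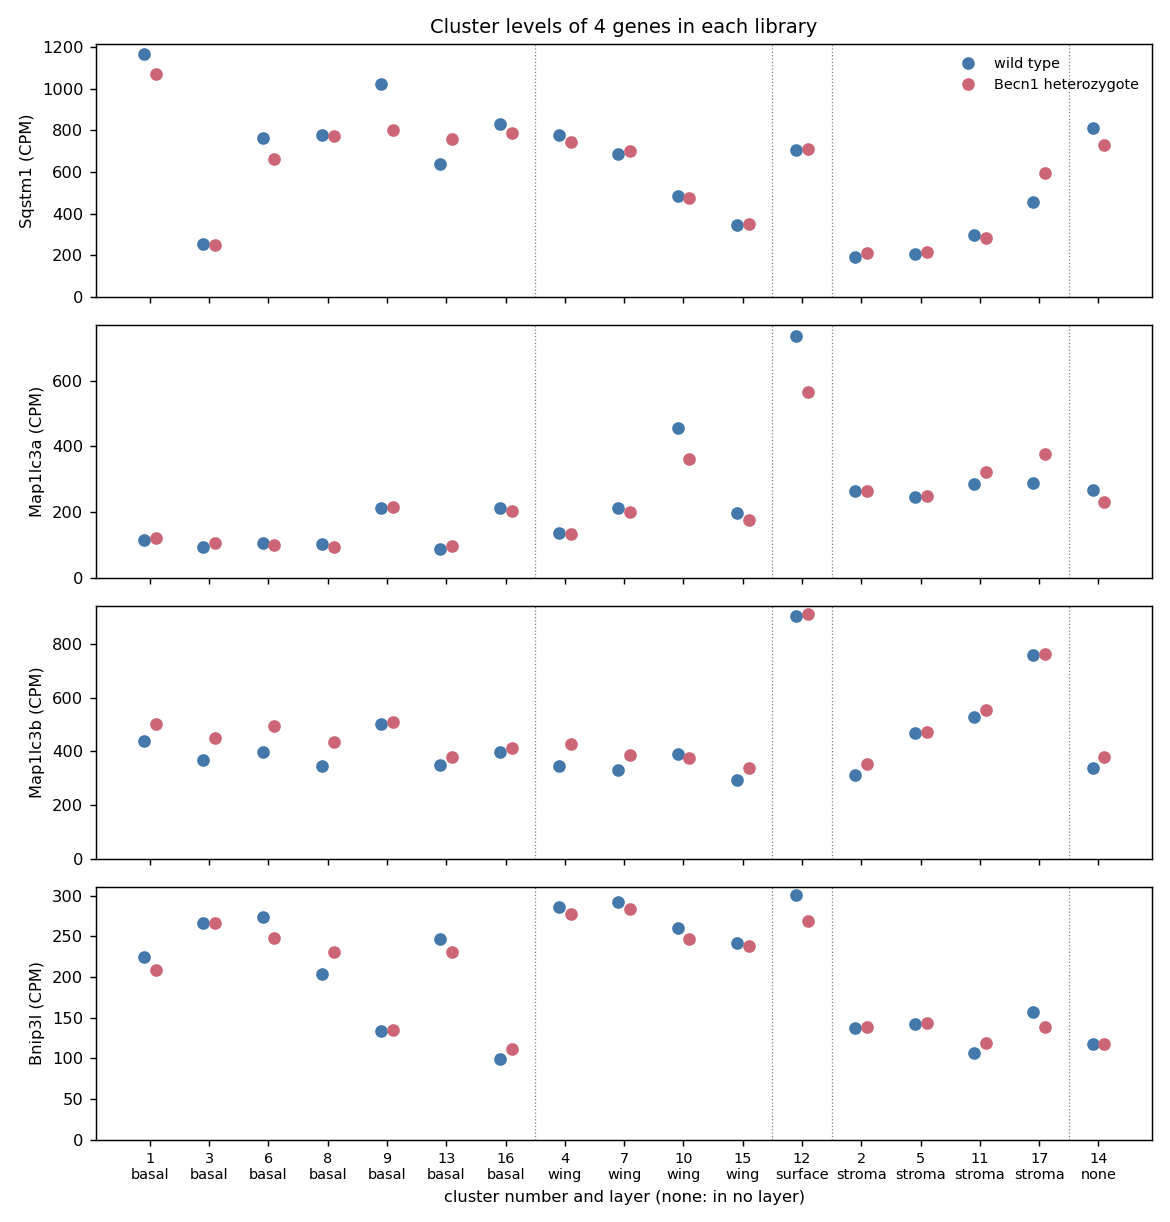
Levels of Sqstm1, Map1lc3a, Map1lc3b and Bnip3l (CPM, linear axes from 0) in each of the 17 clusters with at least 20 cells in each library, ordered by layer, with a blue point for the wild-type and a red point for the heterozygote library. Sqstm1 runs from 256 and 249.9 CPM to 1165 and 1071 CPM within the basal layer, and the limbal clusters 9 and 16 combine the highest basal Map1lc3a with the lowest basal Bnip3l.

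Bnip3 and Bnip3l encode related receptors of the outer mitochondrial membrane that mark mitochondria for autophagy, and their layers were opposite. Bnip3 lies at chr7:138890836-138909519 on the minus strand and overlaps Gm45507 and Gm18258 on the other. It measured 2.12 and 2.23 CPM in basal cells, 0.592 and 0.571 CPM in wing cells and 20.3 and 22.6 CPM in stroma. At the surface no UMI was found in the wild-type library, which allows a level of up to 1.16 CPM (3 UMIs; the 2-sided interval in the plot of levels reaches 1.43 CPM), and 1 UMI, or 0.220 CPM, in the heterozygote. Stroma over epithelium was 13.8-fold (log2 3.79, 3.36 to 4.25) and 15.9-fold (3.99, 3.63 to 4.39), from 139 and 263 UMIs in stroma, but its mean lay under 20 CPM and it was not called. Among the 4 stromal clusters with at least 20 cells in each library, cluster 5, led by Klf2 and Nr4a1, was highest at 28.7 and 27.6 CPM and cluster 17 lowest at 8.82 and 5.30 CPM.

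Bnip3l, at chr14:66985239-67008877 on the minus strand, measured 231 and 220.4 CPM in basal cells, 274 and 268 CPM in wing cells, 301 and 269 CPM at the surface, and 136 and 141 CPM in stroma. Stroma over epithelium was -0.88 (-0.98 to -0.78) and -0.78 (-0.86 to -0.71). The wing clusters ran from 242 and 238 CPM in cluster 15 to 292 and 284 CPM in cluster 7. The epithelial layers lay within 1.5-fold of each other, and wing and surface did not differ beyond counting error in the heterozygote library (0.01, -0.08 to 0.10). The low end of the epithelial layers was basal cluster 16, called limbal by its Gpha2, which had 99.6 and 112 CPM.

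Basal clusters 9 and 16 had at least 500 CPM of the limbal gene Gpha2 and are called limbal by this limit alone. Gpha2 was not confined to them, at 1703 and 1544 CPM in cluster 19. Cluster 16 also had the conjunctival genes Krt4 (652 and 477 CPM) and Krt13 (350.3 and 219.7 CPM). Its Krt12 was the lowest of the basal clusters (1381 and 2738 CPM), so it may hold conjunctival cells, which was not tested. The 192 wild-type and 341 heterozygote cells of clusters 9 and 16 are set here beside the other 1022 and 1661 basal cells. The share of all genes that differed between these groups was not computed, so no member is read as standing out. Map1lc3a was 212 and 211 CPM in limbal against 102 and 106 CPM in other basal cells, a log2 ratio of 1.06 (0.93 to 1.18) and 0.99 (0.87 to 1.10). Bnip3l was 116 and 128 CPM against 248 and 236 CPM, or -1.09 and -0.88. Atg101 was 80.9 and 86.3 CPM against 53.0 and 54.0 CPM, or 0.61 and 0.68, and Atg4d was 13.7 and 17.7 CPM against 31.9 and 28.2 CPM, or -1.20 and -0.66. Gabarapl2 was level between them (0.04 and -0.01), and Sqstm1 was 0.48 and 0.16 higher, short of 1.5-fold. In both libraries the limbal clusters thus combined the highest basal Map1lc3a with the lowest Bnip3l. The clusters were formed on other genes of the same cells, so these are descriptions.

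The rest of the autophagy machinery was less often measurable. The list counts that follow stand beside all-gene shares of 15.3% higher and 20.8% lower for wing over basal, 16.7% and 60.9% for surface over wing, and 31.7% and 24.6% for stroma over epithelium. Of 28 core genes, 8 were measured from wing over basal and none was called; from surface over wing 1 of 8 was higher and 2 lower; and from stroma over epithelium 5 of 11 were higher and 1 lower. Wipi1, which binds the lipid made by the beclin 1 complex, was 72.0 and 51.2 CPM at the surface and 26.8 and 31.0 CPM in wing cells. In stroma, Atg10, an enzyme of the ATG12 conjugation step, was 75.0 and 65.5 CPM against 11.7 and 10.4 CPM in epithelium, and Uvrag, a partner of beclin 1, was 38.7 and 39.6 CPM against 7.77 and 8.14 CPM. Wipi1, Tmem41b and Wipi2 were also higher in stroma (log2 1.76 and 1.35, 1.34 and 1.34, 0.81 and 1.02), and Vmp1, which with Tmem41b moves lipids between membranes, was lower (-0.68 and -0.71). Tmem41b and Wipi2 were the pair lower at the surface (-1.85 and -1.84, -1.08 and -0.81).

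Among 16 other receptor genes, none of 9 measured was higher and 2 were lower in wing than in basal cells, 1 of 8 was higher and 2 lower at the surface, and 2 of 9 were higher and 1 lower in stroma. Fam134b, a receptor for the endoplasmic reticulum, was 121 and 90.1 CPM at the surface and 16.1 and 16.3 CPM in wing cells (2.91 and 2.46). Phb2, an inner mitochondrial membrane protein that can act as a receptor, was 121 CPM in basal cells of either library, 63.9 and 60.6 CPM in wing cells and 5.03 and 5.93 CPM at the surface, lower at each step. The reticulum receptors Tex264 and Sec62 were higher in stroma (1.69 and 1.94, 1.48 and 1.51), and Tollip was lower (-0.64 and -0.75). Of the 6 transcription factor genes of the pathway, Foxo3 was the 1 of 3 measured that was called, higher in stroma (1.64 and 1.31).

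Bnip3 and Bnip3l are known targets of hypoxia-inducible factors, and Sqstm1 of NRF2, so those pathways were read in the same layers. Of 20 hypoxia genes, 1 of 11 was higher and 4 lower in wing than in basal cells, none of 11 was higher and 10 lower at the surface, and 5 of 15 were higher and 3 lower in stroma. Of all genes 60.9% were lower at the surface and 31.7% higher in stroma, so the stromal count was near that background. P4ha2 and P4ha1, which hydroxylate collagen, and Vegfa had the largest positive ratios (P4ha2 4.31 and 4.42, P4ha1 3.37 and 3.57, Vegfa 64.6 and 55.3 CPM in stroma against 8.06 and 7.18 CPM in epithelium), while Ndrg1 and Egln3 were lower (-2.90 and -3.08, -3.09 and -2.55). Hypoxia genes thus went both ways in stroma, with Bnip3 on the higher and Bnip3l on the lower side. Of 14 NRF2 pathway genes, none of 10 was higher and 5 were lower in wing than in basal cells, 1 of 7 was higher and 6 lower at the surface, and 7 of 11 were higher and 2 lower in stroma. Hmox1, heme oxygenase, was 1794 and 1791 CPM in stroma and 23.9 CPM in epithelium of either library, and Nfe2l2, which encodes NRF2, was higher there by 1.11 and 1.22, where Sqstm1 was lower. At the surface Txnrd1, a thioredoxin reductase, was the 1 higher gene (564 and 585 CPM against 24.7 and 31.0 CPM).

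Ratios against the surface depend on scaling more than the others. The 10 most abundant genes held 40.0% and 40.9% of surface UMIs, against 15.6% and 17.3% in wing cells. TMM scaling, which discounts such genes, raised each surface over wing ratio by 1.41 and 1.42 and turned the share of higher calls over all genes from 21.5% to 63.9%. Map1lc3a, Map1lc3b and Gabarapl2 then stood at 3.14 and 2.84, 2.83 and 2.65, and 2.36 and 2.27, and Atg4d stayed lower at -1.71 and -1.45. With TMM scaling the share of higher calls went from 42.5% to 69.5% for wing over basal, where every ratio rose by 0.27 and 0.26, and from 56.3% to 37.0% for stroma over epithelium, where every ratio dropped by 0.36 and 0.41. Leaving mitochondrial and ribosomal protein genes out of the totals took the wing over basal share from 42.5% to 27.9%.

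Between the genotypes the members were close. A member was called here when it differed at least 1.2-fold with a counting interval that left out equality. None of 8 measured members was called in basal cells, against 8.77% of all measured genes (2.25% higher and 6.52% lower). None of 8 was called in wing cells, against 13.9% (4.84% higher, 9.08% lower), and none of 9 in stroma, against 15.0% (5.72% higher, 9.31% lower). At the surface it was 1 of 7, against 27.9% (12.4% higher, 15.4% lower). No member p-value exists for these differences, since each genotype is 1 animal.

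The call at the surface was Map1lc3a, lower in the heterozygote (564 against 737 CPM), with a log2 ratio of -0.39 (-0.47 to -0.30), or 1.31-fold. Over all genes in this layer the 5th and 95th percentiles of the ratio were -0.55 and 0.47, so a difference of this size was not rare there. The same direction was seen in wing cluster 10, at -0.34 (-0.45 to -0.23), while the ratio was -0.03, -0.09 and -0.16 in the other wing clusters and 0.07 in both basal cells and stroma. Among epithelial clusters the largest Map1lc3a differences thus lay where its level was highest. Basal cluster 3, at 0.18 (0.03 to 0.33), and stromal cluster 17, at 0.38 (0.08 to 0.68), went the other way. The surface ratio of Map1lc3a ranged from -0.39 to -0.30 over 15 alternatives. The surface was 1 cluster, so alternatives that leave out other clusters or weight clusters equally could not change this ratio.

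Map1lc3b was higher in the heterozygote library by 0.24 (0.21 to 0.28) in basal and 0.21 (0.16 to 0.26) in wing cells, but by 0.01 (-0.06 to 0.08) at the surface and 0.02 (-0.05 to 0.08) in stroma. The basal value was short of 1.2-fold but above the 95th percentile of all genes in that layer (0.18), and it passed the limit with TMM scaling (0.33) and with cells thinned to 5000 UMIs (0.30). In wing cells the 95th percentile was 0.26, and the ratio was 0.27 without cluster 10. Gabarapl2 was higher by 0.10 in basal, 0.16 in wing, 0.06 in surface and 0.19 (0.12 to 0.26) in stromal cells. Map1lc3b and Gabarapl2 were each higher in the heterozygote in 15 of the 16 clusters of these layers with at least 20 cells in each library, a pattern singled out after its values were seen. Of 4548 genes, 3.12% were higher in at least 15 of them. The counting interval lay above equality in 8 of the 16 for Map1lc3b and in 6 for Gabarapl2. Clusters of a library share its animal and scaling and are not replicates, so these counts carry no test. TMM scaling raised the genotype ratios of every gene by 0.08 to 0.09, and took the share of higher calls over all genes from 25.7% to 66.9% in basal, from 34.8% to 70.1% in wing, from 44.6% to 66.3% in surface and from 38.1% to 71.9% in stromal cells. Totals without mitochondrial and ribosomal protein genes took the wing share from 34.8% to 17.3%.

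**Figure D4:**
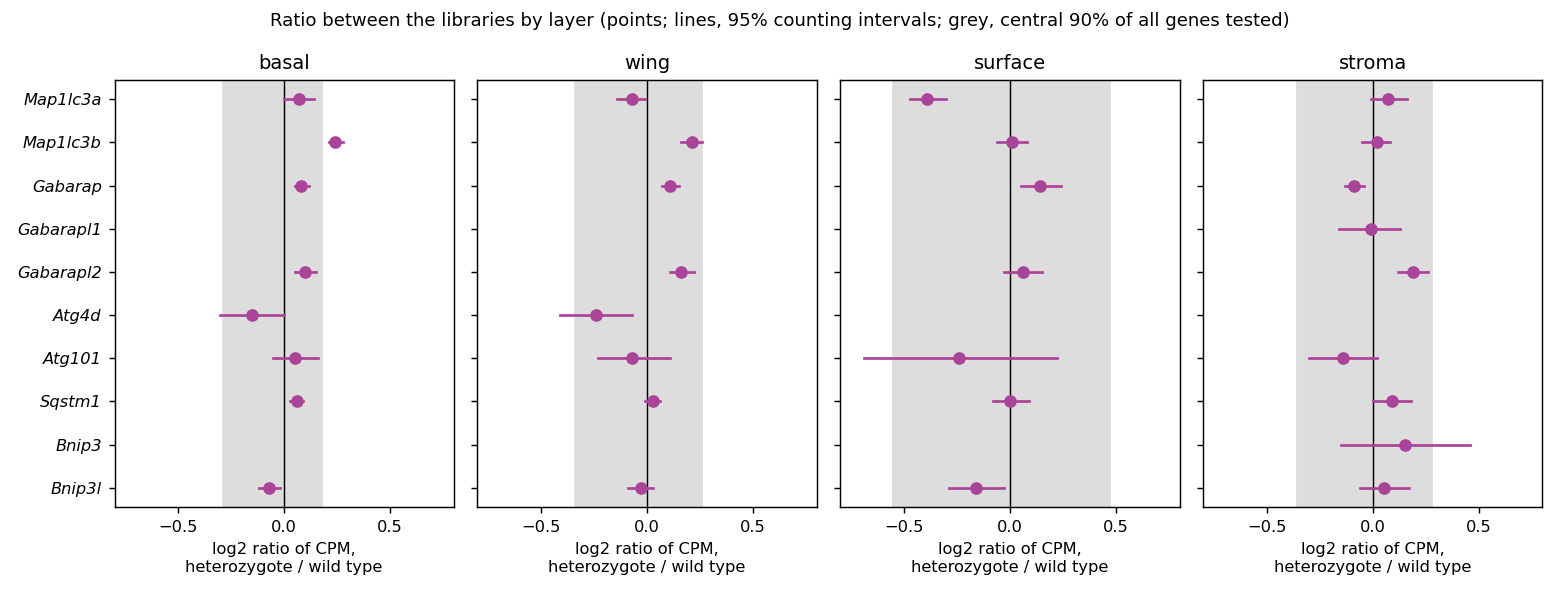
Log2 ratio of the heterozygote over the wild-type library for each member that passed the 20 CPM limit, by layer; lines are 95% exact counting intervals, and the grey band runs from the 5th to the 95th percentile of all genes tested in that layer. Map1lc3b in basal cells (0.24) lies outside the band, whose upper edge there is 0.18, and Map1lc3a at the surface (-0.39) lies inside the wide band of that layer (-0.55 to 0.47).

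Sqstm1 showed how the mix of clusters enters a layer's ratio. Its basal levels of 696 and 726 CPM gave a heterozygote over wild-type ratio of 0.06 (0.03 to 0.09), yet it was lower in the heterozygote in 6 of the 7 basal clusters. Cluster 3, where Sqstm1 was lowest, made up 24.5% of wild-type and 15.7% of heterozygote basal cells. By UMIs, which set its weight, it held 8587419 of 25981311 and 5917678 of 28231330 in the basal layer. Without cluster 3 the basal ratio was -0.10. The limbal cluster 9 had the lowest ratio, at -0.35 (-0.45 to -0.26, from 1023 to 801 CPM), and cluster 13, led by replication genes such as Rrm2, was the exception at 0.25 (0.15 to 0.36). In wing, surface and stromal cells the ratio was 0.03, 0.00 and 0.09.

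The remaining members were near equality. Gabarap was 0.08, 0.11, 0.14 and -0.09 in basal, wing, surface and stromal cells, Bnip3l -0.07, -0.03, -0.16 and 0.05, and Atg101 0.05, -0.07, -0.24 and -0.14. Atg4d was -0.15 (-0.30 to 0.00) in basal and -0.24 (-0.41 to -0.07) in wing cells. Bnip3 in stroma was 0.15 (-0.15 to 0.46) and Gabarapl1 -0.01 (-0.16 to 0.13), where depth leaves a difference of the 1.2-fold limit undetectable for Bnip3. All-gene shares for the list counts that follow were 2.25% higher and 6.52% lower in basal cells and 4.84% and 9.08% in wing cells. At the surface they were 12.4% and 15.4%, and in stroma 5.72% and 9.31%. In the core list no gene was called in basal, wing or stromal cells and 1 of 6 was called, lower, at the surface. Among hypoxia genes 4 of 11 were lower and none higher in the heterozygote in basal cells, and 5 of 11 lower and none higher in wing cells, where 6.52% and 9.08% of all genes were lower. At the surface 1 of 5 was higher and 1 lower, and in stroma 3 of 14 were higher and 2 lower. Of NRF2 pathway genes none of 11 was called in basal cells, and 1 of 9 was higher and 3 lower in wing cells. At the surface 1 of 3 was higher, and in stroma 1 of 12. Among other receptors 1 of 9 was lower in basal cells and 2 of 6 at the surface, with none called elsewhere. Of the transcription factors 1 of 3 was higher in basal cells and 1 of 2 at the surface, with none called elsewhere. The hypoxia genes Bhlhe40 and Hk2 were called lower in 3 layers each, basal, wing and stroma. The share of all genes called lower in 3 layers was not computed. Bhlhe40, a clock-linked repressor, was -0.39, -0.39, -0.56 and -0.45 in basal, wing, surface and stromal cells, and Hk2, a hexokinase, was -0.40, -0.69, 0.11 and -0.48. The surface ratios lay under the 20 CPM limit, with Bhlhe40 at 7.74 and 5.27 CPM and Hk2 at 16.3 and 17.6 CPM. Bnip3l was measured in each layer and not called. Bnip3 was under the 20 CPM limit in basal, wing and surface cells and could not be called there, and in stroma it was not called.

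Across the 17 clusters with at least 20 cells in each library, the genes whose log2(CPM + 10) ran most like each member's were found by Pearson's r, given for each library. Gabarap ran with Pink1, which encodes a kinase of mitochondrial quality control (0.94 and 0.93), Cope and Tuba1a. Gabarapl1 ran with Ppic, Serpinh1 and Emp3 (each 0.98 and 0.98), of which Serpinh1 encodes a collagen chaperone, and Bnip3 with Agtr2, Wnt11 and Wnt5a. Sqstm1 ran with Ndrg1 (0.94 and 0.95), Baz1a and Akirin1, Bnip3l with Slurp1 (0.94 and 0.93), Lypd2 and Krt12, and Atg4d with E130012A19Rik, Chl1 and the desmosomal cadherin Dsc3. Map1lc3a ran with Slc11a2 (0.92 and 0.88), H2-D1 and Pnp, Gabarapl2 with Pla2g16 (0.93 and 0.94), Tmbim4 and Map2k1, Map1lc3b with Nfkbib (0.90 and 0.82), Bambi and Sap18, and Atg101 with Rbm7, Polr1c and Rbm22. Clusters of a library share its depth and fall into epithelium and stroma, so these r values describe these clusters and carry no test.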

How the data were processed

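Deposited files held UMI counts per gene and barcode, whole numbers that the authors had not normalized. Per the submitters' processing notes they were made with Cell Ranger 2.1.1 on mm10; of the annotation and the cell calling, nothing is given in the sources used here. No barcode failed limits of 500 genes and 20% mitochondrial UMIs. Scrublet in scanpy 1.11.5 ranked doublets, and 51 wild-type and 213 heterozygote barcodes were removed (0.8% per 1000 barcodes), leaving 2462 and 4942 cells. After log-normalization, 2000 variable genes without the members, the pathway list genes, mitochondrial and ribosomal protein genes, 30 principal components and 15 neighbours gave Leiden clusters (leidenalg 0.10.2, resolution 1.0). Counts were summed per library and layer. Totals were 54913980 and 74363359 UMIs. Ratios had 0.5 added to each count, with Clopper-Pearson intervals, and the ratio code was tested on simulated data. TMM scaling used edgeR 4.0.16. Positions came from GENCODE M21, matched by Ensembl identifier, and for none of the 10 genes was a 60-base stretch of the last 500 bases found in another gene.

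All members were named, with up to 5 called genes per list and direction for each layer comparison, genes called the same way in at least 3 of 4 layers between genotypes, and the 3 most alike genes per member (smaller r of the libraries). Members, lists and layers were chosen with earlier results of these data known. There were 17 alternatives, 4 of them added after the data were seen: leaving out the Pax6-high basal, the lowest-Dcn stromal or the Krt78-high wing cluster, or clusters of under 20 cells.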

Additional observations from a re-analysis of the deposited data

How the results depend on the processing

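No paired analysis was possible because each genotype had 1 library. No called ratio changed sign under any alternative. The number of members called from wing over basal went from 3 to 1 without the Krt78-high wing cluster. From surface over wing it went from 3 to 7 with TMM scaling and to 6 with no filter on low genes, and from stroma over epithelium from 5 to 3 with TMM scaling and to 3 with a minimum of 100 CPM. Between genotypes it went from 0 to 1 in basal cells with TMM scaling and with cells thinned to 5000 UMIs, from 0 to 1 in stroma with TMM scaling, and from 0 to 1 in wing cells with TMM scaling, Leiden resolution 0.5, list genes among the variable genes, totals without mitochondrial and ribosomal protein genes, and without the Krt78-high cluster. The cause was not tested. Over the 15 alternatives that recompute values, calls of 0 of 3 members held throughout for wing over basal, 2 of 3 for surface over wing (Map1lc3a and Map1lc3b), 3 of 5 for stroma over epithelium (Gabarapl1, Sqstm1 and Bnip3l), and 1 of 1 between genotypes at the surface. The surface was 1 cluster, so alternatives that leave out other clusters or weight clusters equally could not change its genotype call. Atg4d, Gabarapl1 at the surface and Bnip3 in epithelium rest on few UMIs, and depth limits them most.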

Other observations

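The clusters outside the layers were small. Cluster 14 (65 wild-type and 146 heterozygote cells), led by Krt4 with 5598 and 4502 CPM, had 338 and 378 CPM of Map1lc3b and 809.7 and 731 CPM of Sqstm1, and Bnip3l, at 117 CPM in each library, was near its limbal level. Cluster 19 (11 and 36 cells), led by Car3 with the pump gene Slc4a11 among its leading genes, had the highest Bnip3 of any cluster, 40.3 CPM (21.4 to 68.8, 13 UMIs) and 40.7 CPM (27.1 to 58.9, 28 UMIs), together with a Bnip3l level of 251 and 284 CPM in the epithelial range. Cluster 20 (13 and 32 cells), led by Ccl21a with Lyve1 among its leading genes, had the highest Map1lc3b, 1044 CPM (919.7 to 1180) and 1025 CPM (918 to 1142), above the surface layer's 905 and 911 CPM. Cluster 21 (9 and 28 cells), led by Cd74, had no Bnip3 UMI in either library, which at its depth allows levels of up to 30.9 and 12.1 CPM (3 UMIs). Gabarapl1 was 77.4 and 106 CPM in cluster 19 and 102 and 162 CPM in cluster 20, beside 93.5 and 92.7 CPM in the stromal layer, and was 72.0 CPM (7 UMIs) and 20.1 CPM (5 UMIs) in cluster 21.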
